A study of Mus musculus with 6 samples.

Results

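The 38 genes described here encode the contractile, calcium-handling and energy proteins of skeletal muscle fibres, among them Myh13, the myosin heavy chain of extraocular muscle. They were taken by symbol from a table of 35673 genes, and all 38 were found in it. Of these, 37 passed the filter on low counts, as did 18804 genes of the whole table. RNA of mouse cornea was sequenced in 6 libraries, 3 titled Control and 3 titled Cationorm, from male C57BL/6J mice of 6 to 8 weeks. In the study's design, contact lens-related dry eye (CLDE) was made with the preservative benzalkonium chloride (0.1%, 5 µL per eye, 2 times a day) together with a contact lens worn for 6 h a day. Mice of that model then received saline, hyaluronic acid or Cationorm, a cationic nanoemulsion eye drop, at 5 µL per eye 2 times a day for 14 days. The design also names an arm called Control that is separate from the model, but the labels tag all 6 samples as CLDE and give all 6 the same treatment text, so whether the Control libraries came from untreated eyes is not settled by them. All libraries are of genotype C57BL/6J and of a single labelled batch. The labels do not say whether a library held 1 mouse or a pool, nor that replicates were separate animals, so the p-values cover the variation among these 6 libraries and no more, and part of it may be technical.

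A muscle fibre contracts when myosin heavy chains of the thick filament pull on actin of the thin filament. Calcium released from the sarcoplasmic reticulum starts the process by binding troponin. Fibres differ in the heavy chain and troponin forms they use, and so in speed. Adult limb fibres use Myh7 (slow), Myh2 (fast IIa), Myh1 (fast IIx) or Myh4 (fast IIb), while Myh3 (embryonic) and Myh8 (perinatal) are mostly replaced after birth. Extraocular muscles, which move the eye, are known for keeping the developmental heavy chains in the adult and for a heavy chain of their own, Myh13. The corneal stroma and epithelium hold no striated fibres.

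The promoters of 5 members are shown because these genes stand for the patterns that follow: Myh13 and Myh3 are the heavy chains whose share differed by the largest fold between libraries, Myh4 is an adult fast heavy chain, and Ckm and Acta1 followed the mean muscle level closely. Each sequence is the 250 bases before the RefSeq start on the gene's own strand in GRCm38.p6, 5′ to 3′, an older build than the one named in the submitters' processing notes. They lie at chr11:67326853-67327102 on the plus strand (Myh13), chr11:67078050-67078299 on the plus strand (Myh3), chr11:67237562-67237811 on the plus strand (Myh4), chr7:19410844-19411093 on the plus strand (Ckm) and chr8:123894776-123895025 on the minus strand (Acta1). Capitals mark E-boxes (CANNTG, the site type of MyoD-family factors), MEF2 sites and CArG boxes (the site type of serum response factor).
Myh13: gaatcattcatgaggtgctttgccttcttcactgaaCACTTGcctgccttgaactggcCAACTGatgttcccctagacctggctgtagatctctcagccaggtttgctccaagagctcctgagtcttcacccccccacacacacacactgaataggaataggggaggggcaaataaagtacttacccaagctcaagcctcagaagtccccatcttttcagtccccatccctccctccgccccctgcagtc
Myh3: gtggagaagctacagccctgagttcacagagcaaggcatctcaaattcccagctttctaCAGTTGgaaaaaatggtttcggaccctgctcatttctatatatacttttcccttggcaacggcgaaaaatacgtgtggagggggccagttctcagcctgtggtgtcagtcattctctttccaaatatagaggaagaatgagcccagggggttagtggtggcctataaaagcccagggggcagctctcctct
Myh4: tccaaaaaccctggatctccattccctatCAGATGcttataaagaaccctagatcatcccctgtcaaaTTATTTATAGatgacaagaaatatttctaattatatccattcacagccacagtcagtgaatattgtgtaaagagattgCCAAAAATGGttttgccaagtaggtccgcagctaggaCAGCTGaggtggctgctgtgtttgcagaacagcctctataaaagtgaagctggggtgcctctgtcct
Ckm: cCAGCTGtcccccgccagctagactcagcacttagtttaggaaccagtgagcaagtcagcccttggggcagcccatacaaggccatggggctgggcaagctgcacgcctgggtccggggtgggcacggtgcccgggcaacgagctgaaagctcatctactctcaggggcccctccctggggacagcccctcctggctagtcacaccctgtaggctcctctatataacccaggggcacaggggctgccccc
Acta1: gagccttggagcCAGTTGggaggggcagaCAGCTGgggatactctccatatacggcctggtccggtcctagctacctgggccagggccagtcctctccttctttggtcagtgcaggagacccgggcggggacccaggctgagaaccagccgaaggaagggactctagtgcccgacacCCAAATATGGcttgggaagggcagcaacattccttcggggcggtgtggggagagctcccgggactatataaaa
Myh13 held 2 E-boxes and Myh3 held 1, and neither held a MEF2 site or a CArG box in this window. Myh4 held 2 E-boxes, 1 MEF2 site and 1 CArG box. Ckm held 1 E-box, at its far end, and Acta1 held 2 E-boxes and 1 CArG box. Over the 36 promoters matched for 30 of the members, searched on both strands, an E-box was found in 29 (80.6%), against 66.2% of 32851 RefSeq promoters of the same length. MEF2 sites were found in 6 (16.7%, against 2.92%) and CArG boxes in 4 (11.1%, against 1.47%). The muscle CAT motif CATTCC was found in 8 (22.2%, against 12.6%) and the TATA motif TATAAA in 7 (19.4%, against 12.4%). The unit is the promoter, so a gene with several starts could count more than once, also among all RefSeq promoters. The 4 promoters with a CArG box belonged to Acta1, Ldb3 and Myh4 alone. Motifs were counted on their own, so a base can belong to more than 1 of them. A match is a stretch of letters, not a shown binding site.

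The libraries held between 32486043 and 39193311 counts, so 3 counts, the most that a count of 0 allows, came to between 0.0765 and 0.0923 CPM, a count scaled to library size; this limit covers counting error only. Levels below are CPM scaled by TMM, a normalisation that sets libraries to a common level over most genes. The tissue label was met in all libraries by the corneal epithelial markers: Krt12 lay between 8350 and 9080 CPM, and the 7 markers of that list summed to between 55580 and 62260 CPM. Markers of neighbouring tissue were also present in every library. The 7 retina markers summed to between 4619 and 6894 CPM in Control and between 1787 and 5714 in Cationorm, and the 7 lens crystallin and fibre markers to between 71.3 and 2830 CPM in Control and between 1569 and 5532 in Cationorm.

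Muscle transcripts were found in all 6 libraries, at levels that varied far more within each group than between them. The 38 genes together took 0.149%, 0.0302% and 0.269% of the counts in Control 1 to 3, and 0.0221%, 0.406% and 0.175% in Cationorm 1 to 3. Control 2 and Cationorm 1 were low and Cationorm 2 and Control 3 were high, so each group held a low and a high library and the groups overlapped. The group means were 0.149% ± 0.119 (SD, n = 3) in Control and 0.201% ± 0.193 (SD, n = 3) in Cationorm, and the highest library was 18.4-fold above the lowest. Leaving out Des, Ldb3, Mb, Tnnc1 and Tnnt1, which other tissues of the eye may use, gave means of 0.137% ± 0.11 and 0.186% ± 0.18. Tnni2 and Pygm, the members with the smallest spans, stayed in this sum. In Cationorm 1 they stood at 30.1 and 30.3 CPM, where all members summed to 228 CPM. In a bulk sample, fewer muscle cells and less muscle RNA per cell cannot be told apart.

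The single genes followed the same order. Of the 37 tested members, 32 were highest in Cationorm 2 and 5 in Control 3, and 28 were lowest in Cationorm 1 and 9 in Control 2. The highest library was a median of 19.6-fold above the lowest, and 32 members spanned at least 10-fold. Over all 18804 tested genes the median span was 1.44-fold, and 2.28% of genes spanned at least 10-fold or had a 0. Tnni2, the fast troponin I, had the smallest span at 4.89-fold. The largest among the 36 members with over 3 counts in every library was that of Myh3, at 78-fold.

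**Figure D1:**
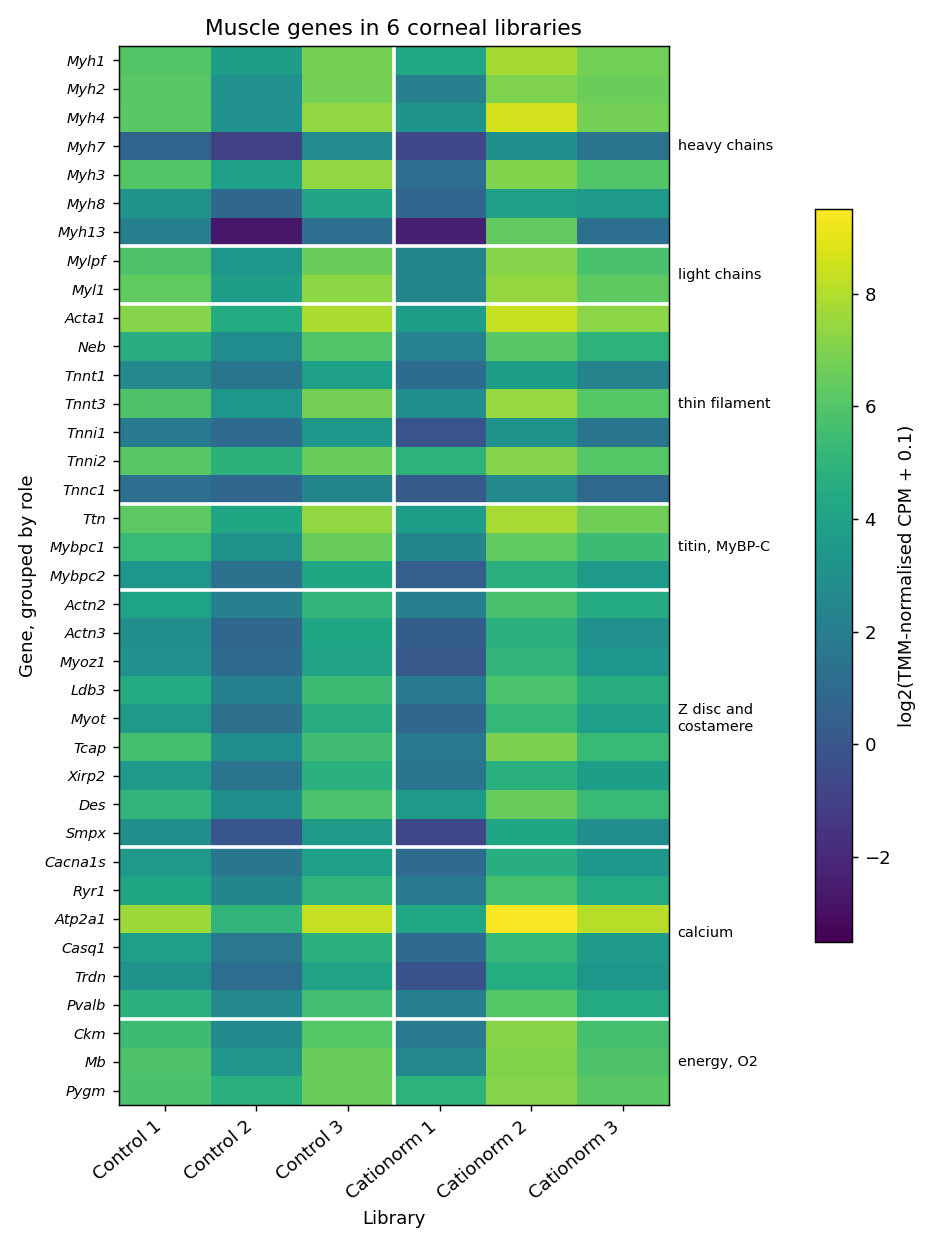
Level of the 37 tested muscle genes (rows, grouped by role) in the 6 libraries (columns), as log2 of TMM-normalised CPM plus 0.1. The columns of Control 2 and Cationorm 1 are darker, meaning lower, for nearly every gene, and Myh13 is bright in Cationorm 2 alone.

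The adult fast heavy chains made up most of the heavy chain counts. Myh4, the fast IIb chain, had levels of 72.0, 8.31 and 168.6 CPM over the 3 Control libraries in order, and of 9.17, 396 and 112 CPM over the 3 Cationorm libraries, the order in which all values below are given. Its Cationorm 2 level was the highest among the 7 heavy chains in any library. Myh1, the fast IIx chain, stood at 63.8, 13.9 and 116 CPM in Control and at 18.8, 212 and 105 CPM in Cationorm. Unlike most members, Myh1 was lowest in Control 2 and not in Cationorm 1. For Myh2, the fast IIa chain, the levels were 70.7, 8.37 and 109 CPM in Control and 4.41, 126 and 96.8 CPM in Cationorm. For all 3 fast chains the groups overlapped, with a low library in each.

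Myh7, the slow chain, was scarce in every library, at 1.5, 0.404 and 6.78 CPM in Control and 0.508, 7.91 and 2.77 CPM in Cationorm. It took between 0.525% and 1.38% of the summed counts of the 7 heavy chains. Myh3, the embryonic chain, reached levels like those of the adult fast chains in Control, at 64.5, 14.2 and 171 CPM, and stood at 2.19, 129.5 and 62.4 CPM in Cationorm. The perinatal chain Myh8 stood at 9.01, 1.79 and 16.9 CPM in Control and 1.56, 15.4 and 11.9 CPM in Cationorm. Myh8 was thus lower than Myh3 in all 6 libraries, with a ratio of Myh3 to Myh8 between 1.41 in Cationorm 1 and 10.1 in Control 3. The 7 chains have nearly equal coding lengths, so their order is the same per kilobase.

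Myh13 broke the pattern of the other members. Its counts were 166, 2 and 80 over the Control libraries in order and 3, 3092 and 87 over the Cationorm libraries, or 4.15, 0.0577, 2.28, 0.0952, 82.1 and 2.31 CPM in the same order. Control 2 and Cationorm 1 were at or under the limit of 3 counts, and Cationorm 2 was 19.8-fold above the next library, against a median of 1.46-fold for all tested members. Myh13 took 8.47% of the heavy chain counts in Cationorm 2 (95% exact binomial interval 8.18% to 8.76%, which covers counting error only). In the other libraries its share ran from 0.123% (0.0149% to 0.443%) in Control 2 to 1.45% (1.24% to 1.69%) in Control 1. The high Cationorm mean, 28.2 ± 46.7 CPM (SD, n = 3) against 2.16 ± 2.05 in Control, therefore rests on 1 library. In the test its log2 fold change was 3.69 ± 1.88 (SE), with a 95% interval of -0.74 to 8.11 (edgeR adjusted p = 0.5497), and it was -0.83 without Cationorm 2.

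A share within the heavy chains does not scale with the amount of muscle RNA in a library. Among the summed counts of the 7 chains, which were 11422, 1629 and 20716 in Control and 1156, 36526 and 14773 in Cationorm, Myh3 took 22.6%, 30.2% and 28.9% in Control 1 to 3. In Cationorm 1 to 3 it took 5.97%, 13.4% and 15.9%. Every Control library was above every Cationorm library, with means of 27.2% ± 4.09 and 11.7% ± 5.15 (SD, n = 3 each). No test was made of this share, which is 1 of 7 examined, and 3 libraries against 3 cannot give an exact permutation p below 0.10. The level of Myh3 itself overlapped between the groups.

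Shares of the other chains overlapped between the groups. Myh1 took 22.3%, 29.5% and 19.6% in Control and 51.1%, 21.9% and 26.7% in Cationorm, and the high value belonged to Cationorm 1, which held the fewest heavy chain counts. Myh4 took 25.2%, 17.7% and 28.6% in Control and 25%, 40.9% and 28.5% in Cationorm, with its high value in Cationorm 2. Myh2 took between 17.8% and 24.8% in Control and between 12% and 24.6% in Cationorm. Myh8 took between 1.59% and 4.24% over all libraries. The chains differed from each other in how far they can be told apart by reads. In transcripts of GRCm38, 27.4% of the 50-base stretches of Myh1 occurred also in another heavy chain, most often Myh2, as did 27.2% of those of Myh2, 18.9% of Myh4, 21.4% of Myh8, 8.81% of Myh13 and 4.85% of Myh3. For Myh7 it was 22.6%, shared with the cardiac chain Myh6. The counting rule for such reads is not given in the sources used here, so the values of Myh1, Myh2, Myh4, Myh7 and Myh8 carry that uncertainty. Myh3, Myh2, Myh1, Myh4, Myh8 and Myh13 lie next to each other in this order on chromosome 11, and Myh7 lies on chromosome 14.

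Myh15, a further heavy chain found in extraocular muscle and listed beside the members, tracked Myh3. It stood at 35.0, 10.4 and 103 CPM in Control and at 1.49, 74.1 and 34.1 CPM in Cationorm. Its ratio to Myh3 was 0.543, 0.732 and 0.605 in Control and 0.681, 0.572 and 0.547 in Cationorm. The ratio thus varied 1.35-fold while Myh3 itself varied 78-fold, and Myh15 shares no 50-base stretch with the other heavy chains and lies on another chromosome, 16. With Myh15 added to the sum, the Myh3 share was between 20.1% and 24.7% in Control and between 5.74% and 14.6% in Cationorm. The lack of overlap here was largely built in, since Myh15 tracked Myh3, and is not separate evidence. With Myh6, Myh7b and Myh14 added too, Myh14, a non-muscle chain at between 437 and 659 CPM, took between 38.6% and 94.2% of the sum, and the groups then overlapped (2.85% to 13.3% and 0.325% to 7.59%).

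The light chains and skeletal actin were among the highest members per coding kilobase. Acta1, skeletal muscle actin, stood at 139, 22.4 and 242 CPM in Control and at 13.3, 342 and 151 CPM in Cationorm. Its order over the libraries was that of the summed members, and the groups overlapped. Myl1, the alkali light chain of fast fibres, stood at 80.8, 13.9 and 158 CPM in Control and at 5.33, 174 and 77.1 CPM in Cationorm, and had the highest mean level per coding kilobase of all members, 150 CPM per kb. Mylpf, the regulatory light chain of fast fibres, stood at 61.5, 10.2 and 96.6 CPM in Control and at 5.01, 140.2 and 54.0 CPM in Cationorm. The ratio of Myl1 to Mylpf stayed between 1.06 and 1.63. Neb, nebulin, which sets thin filament length, stood at 26.3, 7.10 and 62.1 CPM in Control and at 4.70, 73.3 and 29.9 CPM in Cationorm.

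Troponins showed the same predominance of fast forms as the heavy chains, with 1 exception. Tnnt3, the fast troponin T, which ties troponin to tropomyosin, stood at 60.1, 10.5 and 109 CPM in Control and at 7.30, 178 and 68.4 CPM in Cationorm. Tnnt1, its slow form, stood at 6.13, 2.80 and 14.1 CPM in Control and at 2.06, 13 and 4.81 CPM in Cationorm. The slow form took 9.26%, 21.1% and 11.4% of the pair's counts in Control and 22%, 6.83% and 6.58% in Cationorm, so its share was high in the libraries with the least muscle RNA, Control 2 and Cationorm 1. Tnni2, the fast troponin I, which blocks contraction at rest, stood at 70.1, 28.8 and 92.6 CPM in Control and at 30.1, 141 and 67.6 CPM in Cationorm. Tnni1, its slow form, stood at 3.40, 1.93 and 10.7 CPM in Control and at 0.793, 8.92 and 2.87 CPM in Cationorm. The share of Tnni1 in the pair lay between 2.57% and 10.4% and was lowest in Cationorm 1, unlike that of Tnnt1. In that library Tnni2 was 1.32 above where the mean level of the members put it, on the log2 scale. How far the share stands for fibre type there was not tested.

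The exception was troponin C, the calcium sensor. Tnnc1, the slow and cardiac form, stood at 2.25, 1.73 and 5.16 CPM in Control and at 1.02, 5.97 and 1.84 CPM in Cationorm. Tnnc2, the fast form, had 1 count in Cationorm 1, 2 counts in Cationorm 3 and 0 in the other libraries, and was the member that did not pass the filter. Its partners of the fast troponin complex, Tnnt3 and Tnni2, reached 178 and 141 CPM. Exons of Tnnc2 overlap those of Ube2c on the opposite strand in the GRCm38 annotation, and the strand setting of the counting is not given, so this value may not stand for the gene's transcript level, and that was not tested. In all, 16 members overlap an annotated gene on the opposite strand and 0 on the same strand.

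Titin and its partners on the thick filament also followed the muscle level. Ttn, the elastic spring of the sarcomere, stood at 75.4, 17.3 and 167 CPM in Control and at 13.8, 226 and 104 CPM in Cationorm, and with its long coding sequence this came to at most 2.14 CPM per kb. The myosin binding proteins Mybpc1 and Mybpc2 spanned 17-fold and 21.8-fold, with Mybpc1 highest in Control 3 and Mybpc2 highest in Cationorm 2. Among the 9 genes of the Z disc, the costamere and the intermediate filament, Des, desmin, stood at 32.8, 7.67 and 55.8 CPM in Control and at 12.0, 89.8 and 38.5 CPM in Cationorm. Desmin is also made by smooth muscle, and it was lowest in Control 2. Spans of the other 8 ran from 9.96-fold for Xirp2, a binder of actin, to 37.2-fold for Tcap, the cap of titin at the Z disc. Myot, myotilin, followed the mean of the other members most closely.

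Genes of calcium handling were present with their whole chain from sensor to pump. Cacna1s, the voltage sensor of the tubules, spanned 12.6-fold. Ryr1, the release channel that it opens, stood at 18.2, 5.25 and 32.3 CPM in Control and at 3.33, 52.9 and 21.5 CPM in Cationorm. Atp2a1, the fast-fibre pump that returns calcium to the store, was the member with the highest mean CPM over the 6 libraries, though not in Cationorm 1, where Pygm and Tnni2 were higher. It stood at 194, 33.1 and 328 CPM in Control and at 19.2, 691 and 270.2 CPM in Cationorm. Pvalb, parvalbumin, a calcium buffer of fast fibres, stood at 27.9, 5.94 and 47.2 CPM in Control and at 4.28, 66.8 and 21.6 CPM in Cationorm. The store proteins Casq1 and Trdn spanned 18.3-fold and 30.7-fold. In all of these the low libraries were Control 2 and Cationorm 1.

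Of the energy and oxygen genes, Ckm, muscle creatine kinase, stood at 42.5, 6.23 and 67.0 CPM in Control and at 3.52, 143 and 51.2 CPM in Cationorm. Mb, myoglobin, stood at 57.7, 9.61 and 94.7 CPM in Control and at 5.84, 132 and 58.7 CPM in Cationorm. Pygm, the glycogen phosphorylase of muscle, stood at 54.0, 26.4 and 91.8 CPM in Control and at 30.3, 142 and 73.1 CPM in Cationorm. With a span of 5.36-fold, Pygm lay beside Tnni2 and Tnnc1 (5.88-fold) as the members that varied least.

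No member passed the test of Cationorm against Control. edgeR's quasi-likelihood test, adjusted over all 18804 genes by the Benjamini-Hochberg method at 0.05, called 0 of the 37 members, against 0% of all tested genes (0 genes called). At an unadjusted p of 0.05, 0 members passed, against 8.73% of all tested genes, and the smallest p was 0.08979, of Myh13. DESeq2 called 0 members and 64 genes in all, which is 0.197% of those it tested. It gave no adjusted p for Myh13, so it could not have called that member. Leaving out a library left 0 members called each time, against 1.83% of all genes (350) without Cationorm 3, 0.0414% (8) without Control 3 and 0.00517% (1) without Control 2. In 0 members did the groups stand apart without overlap, against 14.8% of all tested genes. The members' median SE was 1.0 on the log2 scale, so differences of the size seen in their fits were not detectable with 3 libraries a group.

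The fitted log2 fold changes were above 0 for 32 members (86.5%) and below 0 for 5, with a median of 0.37, against 51.2% and a median of 0.006 over all tested genes. All 13 tested fast members were above 0, with a median of 0.40, as were 16 of the 17 members not tied to a fibre type (0.41). Of the 4 slow members 1 was above 0 (median -0.12), and of Myh3 and Myh8, the embryonic and perinatal chains, 1 (median -0.15). The differences between these classes were not tested. Acta1 had 0.33 ± 1.09 (SE), Ckm 0.78 ± 1.16 and Atp2a1 0.82 ± 1.15. Among the heavy chains, Myh4 had 1.06 ± 1.29 (SE), Myh1 0.80 ± 0.92, Myh2 0.28 ± 1.13, Myh7 0.37 ± 1.10, Myh8 0.06 ± 0.90 and Myh3 -0.36 ± 1.21. Of the troponins T, Tnnt3 had 0.50 ± 1.08 and Tnnt1 -0.21 ± 0.75. Adjusted p-values of the members ran from 0.5497 to 0.9952. The sign rested on single libraries. Without Cationorm 2, 0 members were above 0 (median -0.71), against 46.6% of all genes, and without Control 2 there were 12 (median -0.11), against 49.5%. Without Control 3 all 37 tested members were above 0 (median 1.05), against 50.6%, and likewise without Cationorm 1 (median 0.89), against 49.2%. With limma-voom sample weights 12 members were above 0 (median -0.10), against 52.7%.

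**Figure D2:**
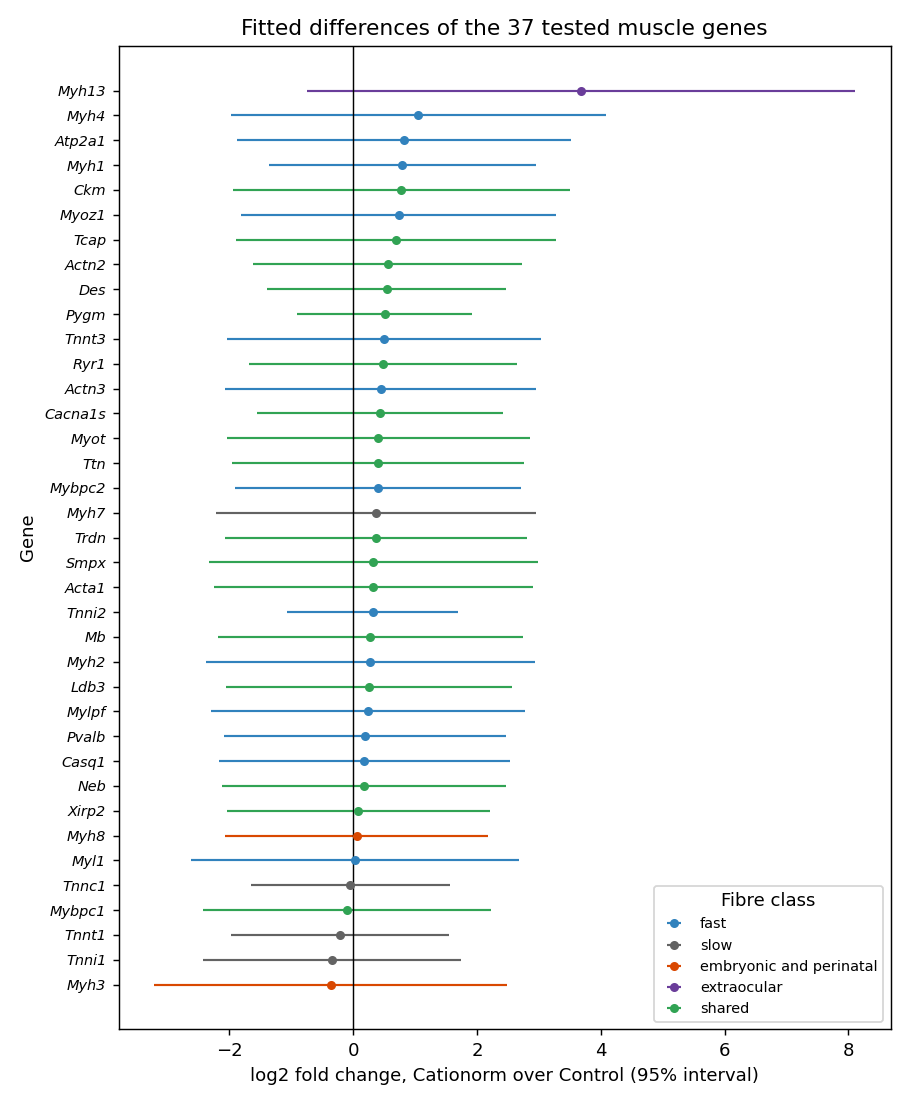
Fitted log2 fold change of Cationorm over Control for the 37 tested muscle genes, with 95% intervals from edgeR's quasi-likelihood fit on 3 libraries a group, coloured by fibre class. Every interval crosses 0, and Myh13 stands at 3.69 with the widest one.

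The members moved together over the libraries. Their mean log2 CPM was 4.49, 2.29 and 5.37 in Control 1 to 3 and 1.74, 5.99 and 4.62 in Cationorm 1 to 3, a span of 4.25 on the log2 scale. Pearson's r of a member with the mean of the others, over the 6 libraries, was at least 0.95 for 32 members, with a median of 0.99. These are descriptions, since the points share libraries and 2 of the 6 libraries lie well below the rest. The members that followed the mean least were Tnnc1 (0.883), Myh13 (0.908), Tnni1 (0.923), Myh3 (0.946) and Tnnt1 (0.949), so 3 of the 4 slow members were among them. Myh13 had the largest SD about the mean level, 2.04 on the log2 scale, followed by Tnnc1 (0.957), Myh3 (0.906), Pygm (0.836) and Tnni2 (0.827). In Cationorm 1, Myh3 was 1.72 below where the mean level put it, the lowest value of any member but Myh13 in Control 2.

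**Figure D3:**
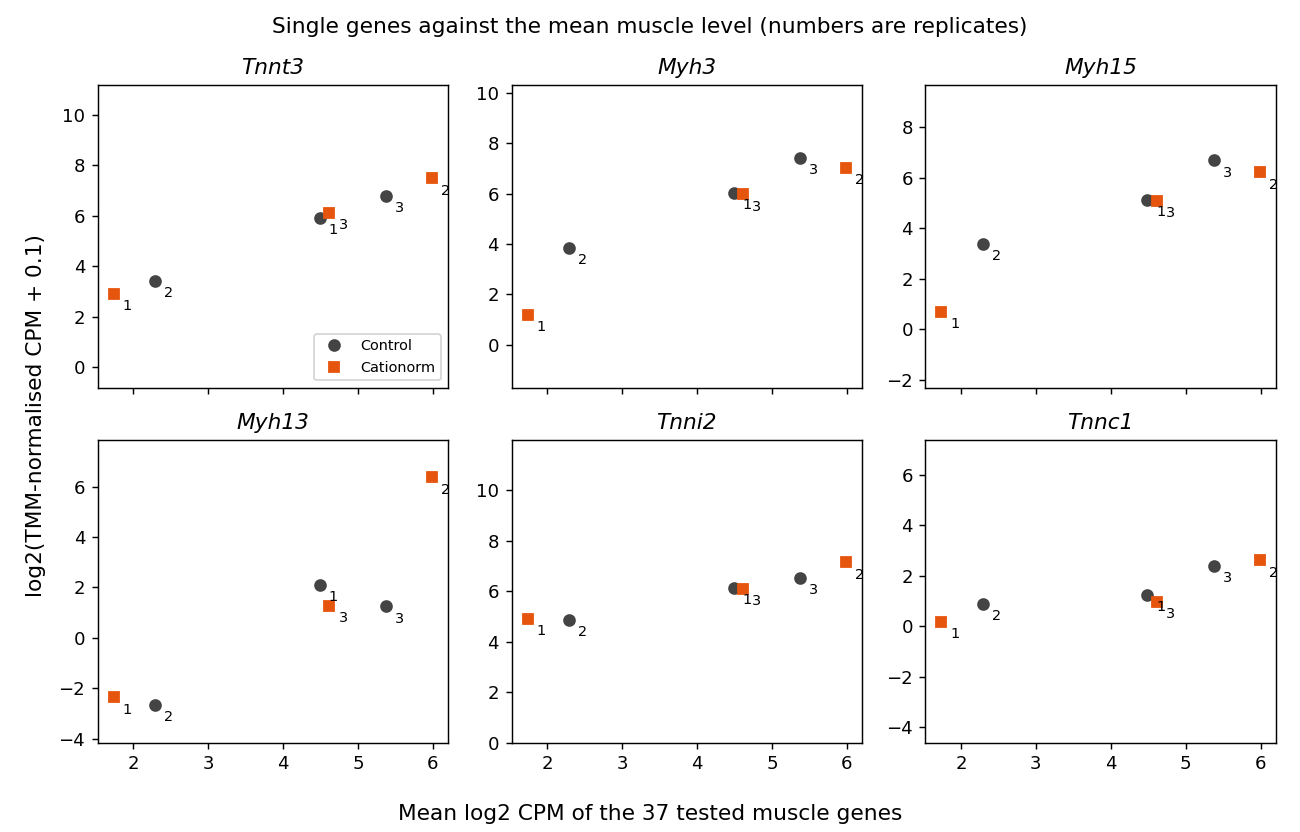
Level of 6 genes, as log2 of TMM-normalised CPM plus 0.1, against the mean log2 CPM of the 37 tested muscle genes, 1 point per library with its replicate number. Tnnt3 rises with the mean, Myh3 and Myh15 both drop away in Cationorm 1, Myh13 stands off in Cationorm 2, and Tnni2 and Tnnc1 rise less steeply.

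The 20 genes outside the members most like them, by Pearson's r of log2 CPM with the mean of the members over the 6 libraries, were taken from 15477 genes with a mean of at least 1 CPM. All had r of at least 0.9926, and 13 of the 20 were in the other muscle lists. Among them, in order, were Eno3 (muscle enolase), Srl, Hspb6, Atcayos, Mylk4, Mylk2 (the kinase of skeletal muscle light chains), Pgam2, Rpl3l (a ribosomal protein of striated muscle), Kcnj11, Klhl41, Mtres1, Klhl31, Smtnl1, Jsrp1, Hspb7, Ckmt2 (creatine kinase of muscle mitochondria), Nrap, Tmem182 and Trim54. Eno3, the nearest, stood at 67.3, 19.8 and 118 CPM in Control and at 12.9, 173 and 77.7 CPM in Cationorm. Mtres1 varied only between 8.63 and 12.2 CPM. In all, 113 genes had r of at least 0.95.

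Among 116 further muscle genes in 8 lists, 108 were tested, of which 79 had a fitted fold change above 0, 29 were below, and 0 passed (smallest adjusted p = 0.5497, edgeR). Over all tested genes 51.2% were above 0 and 0% passed, the shares to set beside each list below. The median of the 108 was 0.28, and 43 had r of at least 0.95 with the mean of the members. Their signs are thus not separate from those of the members, and they were not examined with a library left out. The sarcomere list had 29 of 34 above 0 (median 0.37), with Tpm1 at 69.7, 49.8 and 115 CPM in Control and 81.2, 155 and 90.0 CPM in Cationorm. Tpm2 and Tpm3, tropomyosins that other cells also make, lay between 202 and 366 CPM. The excitation list had 15 of 18 above 0 (median 0.22), led in level by Atp2a2, the pump of slow fibres and of most other cells, at between 285 and 304 CPM. The metabolism list had 17 of 17 above 0 (median 0.48), with Aldoa between 565 and 795 CPM and Pfkm, muscle phosphofructokinase, between 71.9 and 196 CPM.

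Of the slow fibre list 4 of 8 were above 0 (median -0.03). Myl2, the slow regulatory light chain, stood at 1.2, 0.317 and 5.04 CPM in Control and 0.476, 4.75 and 0.957 CPM in Cationorm, an order much like that of Myh7. In the extraocular and cardiac-type list 4 of 11 were above 0 (median -0.12). Actc1, cardiac actin, stood at 7.95, 0.923 and 21.3 CPM in Control and at 0.254, 80.3 and 9.26 CPM in Cationorm, and its ratio to Acta1 ran from 0.0191 in Cationorm 1 to 0.235 in Cationorm 2.

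The list of the neuromuscular junction had 7 of 8 tested genes above 0 (median 0.08), led by Lrp4 and Etv5, which lay between 44.1 and 54.8 CPM and between 20.9 and 28.0 CPM. Of the acetylcholine receptor subunits, Chrnb1 lay between 8.32 and 11.1 CPM and did not share the wide span of the muscle genes, and Chrna1 had between 22 counts in Cationorm 1 and 152 in Cationorm 2. The other 3 subunits did not pass the filter. Chrne, the adult subunit, had 2, 2 and 0 counts in Control and 4, 35 and 1 counts in Cationorm. Chrnd, a subunit of both forms, had 0, 2 and 2 counts in Control and 0, 27 and 0 counts in Cationorm. Both had most of their counts in Cationorm 2, as did Myh13. Chrng, the fetal subunit, had 0, 6 and 0 counts in Control and 0, 5 and 18 counts in Cationorm.

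Among myogenic regulators and satellite cell genes 4 of 11 tested genes were above 0 (median -0.10). Myf6, the regulator kept in mature fibres, stood at 1.90, 0.462 and 4.33 CPM in Control and at 0.127, 5.17 and 2.55 CPM in Cationorm. Myod1 had 28, 6 and 26 counts in Control and 0, 38 and 12 counts in Cationorm. Pax7, the factor of satellite cells, had at most 11 counts in a library. The denervation and regeneration list had 1 of 6 tested genes above 0 (median -0.19), led by Ncam1 at between 37 and 56.3 CPM. Its member Sln, a small protein that slows the calcium pump, stood at 3.55, 0.577 and 7.12 CPM in Control and at 0, 5.6 and 2.37 CPM in Cationorm.

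Most marker lists of other cells did not share the order of the muscle genes. The 9 smooth muscle markers summed to 129.5, 121.5 and 219 CPM in Control and to 363.5, 305 and 272 CPM in Cationorm, highest in Cationorm 1, the library lowest in skeletal muscle RNA. All 9 were tested, with 9 fitted fold changes above 0, against 51.2% of all tested genes, and 0 passed, against 0%. Acta2, Myh11, Cnn1, Actg2 and Myl9 were highest in Cationorm 1, Smtn, Lmod1 and Synpo2 in Cationorm 2, and Tagln in Cationorm 3. Synpo2 had r of 0.948 with the mean of the members, while the other markers of this list had at most 0.291. The 7 iris, ciliary body and pigment markers summed to between 419 and 1036 CPM in Control and between 1158 and 1463 CPM in Cationorm, again highest in Cationorm 1. For both lists the sum in the lowest Cationorm library lay above that in the highest Control library, while the skeletal muscle sum did not separate. Not all single genes did so: the groups overlapped for Tagln, Lmod1, Synpo2, Tyr and Tyrp1. Over all tested genes, 14.8% had groups without overlap. With the mean of the members over 6 libraries, the mean log2 level of the smooth muscle list had r of 0.233. The same r was 0.155 for the iris, ciliary body and pigment list and -0.05 for the retina markers. In none of these 3 lists was a gene at 0 in any library. Tendon markers, among which Kera is also a gene of corneal stroma, had r of -0.386. The same measure was 0.334 for corneal epithelium, -0.695 for corneal stroma, -0.07 for meibomian and lacrimal gland, 0.165 for vascular endothelium and 0.193 for peripheral nerve and Schwann cells.

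Markers of conjunctiva and eyelid skin had r of -0.921 for the list mean, which itself only ran from 4.73 to 5.07 on the log2 scale. No single gene came near that value: r was -0.578 for Krt13, -0.626 for Krt4, -0.45 for Krt10, -0.325 for Lor and 0.469 for Krt1. Krt13 lay between 2140 and 2980 CPM, and Muc5ac was at 0 in 3 libraries. Of 6 adipocyte markers 2 passed the filter. The summed level of the list, led by Fabp4, ran from 3.12 to 6.72 CPM in Control and from 1.65 CPM in Cationorm 1 to 9.02 CPM in Cationorm 2, and its r was 0.863. That r averages the 2 tested genes, which differed: Fabp4 had 0.945 and Retn -0.201. Adipoq had 0 counts in all 3 Control libraries and 2, 14 and 4 counts in Cationorm. Plin1 had 0 counts in Control and 2, 8 and 0 in Cationorm, and Cidec had 0, 0 and 2 and then 0, 10 and 0. Lep went the other way, with 6, 12 and 8 counts in Control and 4, 2 and 6 in Cationorm. The part of any of these tissues in the values of the muscle genes was not tested.

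**Figure D4:**
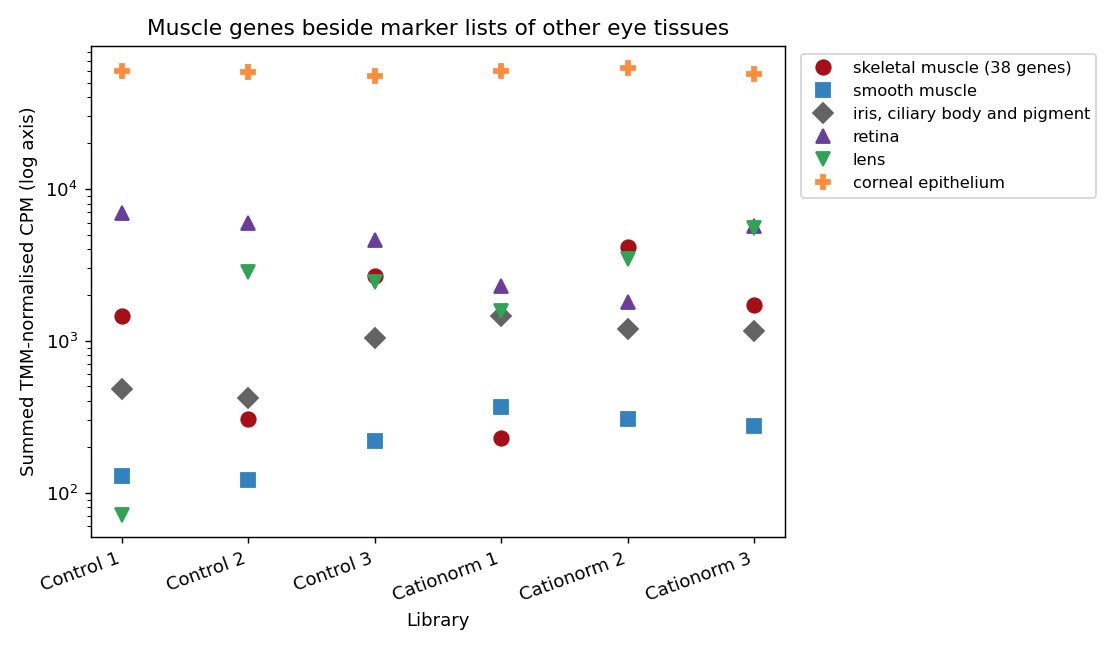
Summed TMM-normalised CPM (log axis) of the 38 muscle genes and of 5 marker lists of other eye tissues in each library. The muscle sum runs from 228 CPM in Cationorm 1 to 4154 CPM in Cationorm 2, while the corneal epithelium list stays between 55580 and 62260 CPM and the smooth muscle list is highest in Cationorm 1.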

How the data were processed

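The values are raw read counts per gene symbol, 1 column per library, as deposited by the authors. The submitters' processing notes name DESeq2 and the builds GRCm39 and mm39 without a role; no aligner, counter, annotation release or strand setting is given in the sources used here. Per the labels' protocols, mRNA was enriched from TRIzol-extracted RNA, and libraries followed Illumina's TruSeq procedure. Of counts from 1 to 20, 63.9% were even, so a fragment may have added more than 1 count; the counting floors would then be too low.

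The counts were normalised by TMM, filtered with filterByExpr (18804 of 35673 genes kept; 3247 had no count) and tested with edgeR 4.0.16 (glmQLFit, glmQLFTest) in R 4.3.3, Cationorm against Control over all 6 libraries with no covariate, with Benjamini-Hochberg adjustment at 0.05 over all tested genes. DESeq2 1.42.0, limma 3.58.1, other scalings and filters, a replicate block and left-out libraries were alternatives. The procedure was tested on simulated data in which genes were drawn independently. That does not cover genes that move together over the libraries, as the members do. Replicates differed by more than sampling noise (lowest chi-square for each degree of freedom 27.7). Coding lengths, overlapping genes and gene order are from GENCODE M21 and RefSeq (GRCm38), in which all 38 symbols matched. Shares of heavy chains and troponins are of raw counts; per coding kilobase they were nearly the same.

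The members and lists were chosen with earlier results of these data known. By the rule for named genes, 7 heavy chains, both forms of each troponin, and Acta1, Ckm, Mylpf, Myl1, Ttn, Neb, Des, Mb, Pvalb, Atp2a1 and Ryr1 are given in every library, with the genes of highest level in each other list and genes from the 20 most like the members; some results under this rule are not reported here. Pygm, Myh15, Actc1, Myl2, Sln, Adipoq, Plin1, Cidec, Lep, Lor and the receptor and myogenic genes were added after their values were seen. Tests of lists were not made.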

Additional observations from a re-analysis of the deposited data

How the results depend on the processing

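With 3 libraries a group and the spread of the members within both, the fit could not resolve changes of the size seen, and each of the 12 fold changes given changed sign when 1 library or another was left out. Of 422 alternative values for 39 results, 39 changed sign, 20 moved and 363 were classed as the same, and the cause was not tested. For single fold changes, the same meant an unchanged sign and side of the threshold. For shares and summed levels it meant a mean within the SD of the group's libraries, and for the median fold change within its SE. These margins are wide. The mean Myh13 share in Cationorm, 3.1%, was 0.424% without Cationorm 2 and was still classed as the same. The 0 members called stayed at 0 in every alternative run, though DESeq2 gave no adjusted p for Myh13 and so could not have called it.

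Over all genes, DESeq2 called 64 genes (57 higher, 7 lower) against 0 with edgeR. Leaving out 1 library at a time gave between 0 and 350 genes called: 350 without Cationorm 3, 8 without Control 3 and 1 without Control 2. Members with a fold change above 0 numbered 12 with limma-voom sample weights, 8 with the replicate block (against 51.1% of all genes), and between 0 and 37 when 1 library was left out. Their median was -0.10 with sample weights, -0.18 with the replicate block, and between -0.71 and 1.05 when 1 library was left out.

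Single fold changes turned sign as follows. With limma-voom, Myh2 was -0.01 and Acta1 -0.02. With sample weights, Myh2 was -0.47, Myh8 -0.21, Acta1 -0.34, Atp2a1 -0.06, Ckm -0.07 and Tnnt3 -0.10. With the replicate block, Myh2 was -0.10, Myh8 -0.10, Acta1 -0.32, Atp2a1 -0.0033, Ckm -0.07 and Tnnt3 -0.19. Myh13 was -0.79 without Control 3 and Cationorm 2 together. Leaving out 1 library gave ranges of -0.06 to 1.53 for Myh1, -0.30 to 0.94 for Myh2, -0.45 to 2.10 for Myh4, -0.81 to 1.96 for Myh7, -1.36 to 0.72 for Myh3, -0.45 to 0.83 for Myh8, -0.83 to 4.59 for Myh13, -0.71 to 1.06 for Acta1, -0.35 to 1.53 for Atp2a1, -0.49 to 1.44 for Ckm, -1.16 to 0.57 for Tnnt1 and -0.66 to 1.26 for Tnnt3.

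With Myh6, Myh7b, Myh14 and Myh15 in the sum, the mean shares in Control and Cationorm were 6.50% and 8.49% for Myh1, 6.22% and 5.83% for Myh2, 7.82% and 11.8% for Myh4, 0.263% and 0.27% for Myh7, 7.97% and 4.67% for Myh3, and 0.919% and 0.764% for Myh8, since Myh14 then took between 38.6% and 94.2% of a library's sum. DESeq2 size factors, upper-quartile factors, robust dispersion, both filters and a TMM without the muscle genes changed the sign of 0 of the 12 fold changes. The correlations gave no sign that the replicate numbers pair the samples. Same-numbered libraries had correlations of -0.178, -0.306 and -0.163, and no library correlated best with its own number. Deviations were taken from each group's mean, so positive and negative correlations offset each other. These values therefore cannot settle whether samples were paired in handling.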

Other observations

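Some genes were further above the next library in Cationorm 2 than most members were. Genes were ranked by their level in Cationorm 2 over that in the next library, an order chosen after the values were seen. The 15309 genes ranked were those with at least 1 CPM in Cationorm 2 itself, a choice that favours that library. Myh13 was the first at 19.8-fold. Mybphl, a myosin binding protein of heart muscle, followed at 5.24-fold, with 51, 0 and 76 counts in Control and 0, 427 and 60 counts in Cationorm. Cfd, the adipsin of fat cells, was at 5.06-fold on few counts, 38 in Cationorm 2 and at most 7 elsewhere. Actc1 was at 3.76-fold and Mybph at 3.75-fold. Ampd1, the adenylate deaminase of muscle, was at 3.49-fold, and Fabp3, the fatty acid carrier of heart and oxidative muscle, at 2.77-fold with 487 counts against at most 174. Plin5, a lipid droplet protein of oxidative tissue, was at 2.88-fold, Cd36, a fatty acid transporter, at 2.55-fold and Ckmt2 at 2.54-fold. Of the members beside Myh13, Tcap was at 2.44-fold and Myh4, the fast IIb chain, at 2.35-fold. The other genes among the 20 named by this order were Gm830, R3hdml, Mettl21e, Tmem233, Rps25-ps1, Pcdh12, Gm5702 and Tbx15. The median over the tested members was 1.46-fold. All of this is 1 library, with no replicate check. Cfd, Mybph, Gm830, Mettl21e, Plin5, Tmem233, Pcdh12 and Gm5702 were under 1 CPM in every other library, so they were ranked through Cationorm 2 alone. The same order is not given for another library, so the list cannot show that Cationorm 2 is unusual.

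The correlations of deviations across the groups were highest for Control 3 with Cationorm 2 (0.351), Control 2 with Cationorm 1 (0.317) and Control 1 with Cationorm 3 (0.209). The members match in the same way: the high libraries, the low libraries and the middle ones. The correlations were taken over all tested genes with the muscle genes among them, so this match is partly built in and is not separate evidence. Nothing in the labels links these libraries.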
